A study of Rattus norvegicus with 6 samples.

Results

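The myotubularins are a family of lipid phosphatases, described here through 10 genes taken by exact symbol (Mtm1, Mtmr1, Mtmr2, Mtmr3, Mtmr4, Mtmr6, Mtmr9, Mtmr11, Mtmr12 and Mtmr14) from an RNA-seq table of 18286 rat genes. All 10 symbols had 1 row each and none was absent. The genes were chosen with their response to the treatment already known, above all the higher levels of Mtmr14 and Mtmr11, so their differences between the groups are given as a description, without a test of the family. RBL-2H3, the cell line studied, derives from a rat basophilic leukemia and serves as a model of mast cells. It was profiled in 2 groups of 3 libraries, cells treated with DHC (dihydrocoumarin, a lactone found in the plant Melilotus officinalis) and untreated control cells. All 6 samples carry the same protocol text, in which cells receive anti-DNP IgE at 50 ng/ml for 12 h, are washed, and are then exposed for 4 h to DNP-HSA, the antigen, at 100 ng/ml. The treatment label of the control samples is none, so whether they received IgE and antigen is not settled, and a DHC difference may be against stimulated or unstimulated cells. The labels give neither dose nor duration of DHC, and do not say whether replicates were grown separately, so p-values measure a spread that may be technical.

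Active myotubularins remove a phosphate from PI3P, the lipid that marks early endosomes and forming autophagosomes, and from PI(3,5)P2, a lipid of late endosomes and lysosomes. Of the 10 genes, 7 encode catalytic enzymes (Mtm1, Mtmr1, Mtmr2, Mtmr3, Mtmr4, Mtmr6 and Mtmr14) and 3 encode relatives that lack the catalytic cysteine and serve mostly as partners of active ones (Mtmr9, Mtmr11 and Mtmr12). The family is best known from inherited disease of human muscle (MTM1) and peripheral nerve (MTMR2), and its substrates are made and consumed during membrane traffic in mast cells as in other cells.

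Because the deposited table holds no transcript sequence, promoters were taken from RefSeq for the rat build GRCr8, where 8 of the 10 members had an entry. Shown are the windows of Mtmr14 and Mtmr11, the members that stood highest with DHC relative to control, and of Mtm1, the member that stood lowest. Each runs from 250 bases before to 50 bases after the annotated start and is written 5′ to 3′ on the strand of the gene. Capitals mark matches to any of 7 motifs searched on both strands, the E-box CACGTG, the CRE TGACGTCA, the AP-1 site TGANTCA, the ETS site CCGGAAG, the GC box GGGCGG, the CCAAT box CCAAT and the GATA site GATAA. The windows lie at chr4:147942372-147942671 on the plus strand (Mtmr14), chr2:186412157-186412456 on the plus strand (Mtmr11) and chr6:6252825-6253124 on the minus strand (Mtm1).
Mtmr14: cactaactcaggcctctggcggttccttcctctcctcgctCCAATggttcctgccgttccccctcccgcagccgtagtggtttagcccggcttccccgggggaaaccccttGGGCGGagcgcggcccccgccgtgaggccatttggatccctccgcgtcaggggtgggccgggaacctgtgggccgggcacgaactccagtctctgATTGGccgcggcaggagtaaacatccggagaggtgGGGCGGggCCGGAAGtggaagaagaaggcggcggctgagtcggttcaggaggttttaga
Mtmr11: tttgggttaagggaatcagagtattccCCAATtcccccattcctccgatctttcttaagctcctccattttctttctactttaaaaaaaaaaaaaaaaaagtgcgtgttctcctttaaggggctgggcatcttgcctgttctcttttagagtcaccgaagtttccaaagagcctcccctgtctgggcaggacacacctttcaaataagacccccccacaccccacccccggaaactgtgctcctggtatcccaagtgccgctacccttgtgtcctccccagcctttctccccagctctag
Mtm1: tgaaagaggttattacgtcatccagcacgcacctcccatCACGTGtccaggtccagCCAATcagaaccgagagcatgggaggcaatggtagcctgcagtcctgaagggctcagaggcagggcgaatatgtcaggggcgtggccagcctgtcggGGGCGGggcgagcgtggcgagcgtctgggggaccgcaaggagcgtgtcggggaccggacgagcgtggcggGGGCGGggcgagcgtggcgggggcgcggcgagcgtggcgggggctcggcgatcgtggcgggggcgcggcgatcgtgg
The Mtmr14 window held 2 GC boxes, 2 CCAAT boxes and an ETS match that spans the annotated start. The Mtmr11 window held 1 CCAAT box and no other match. In the Mtm1 window there were an E-box, 2 GC boxes and 1 CCAAT box. Among the 8 member windows the E-box occurred in 1 and the ETS match in 1, against 6.42% and 8.75% of all 33469 promoters of the same length. The CCAAT box occurred in 7 (37.5% of all promoters), the GC box in 5 (33.1%) and the GATA match in 2 (26.5%). No member window held the CRE or AP-1 letters (1.83% and 7.33% of all promoters). GC content was 66.3% for Mtmr14, 49.3% for Mtmr11 and 70.3% for Mtm1, against a median of 51.7% over all promoters. CCAAT matches do not overlap the other motifs in these 3 windows.

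The libraries held between 29190987 and 31299551 reads assigned to genes in the DHC group and between 29084976 and 34170922 in the control group. Levels are in RPKM, reads scaled to the length of a gene's summed exons and to the library's assigned reads, so genes can be compared per length. Mast cell genes were present in both groups, with the IgE receptor gene Fcer1a between 99.6 and 118.3 RPKM in DHC libraries and between 102.2 and 111.1 RPKM in control libraries, while the granule protease genes were uneven, with Cpa3 between 18.2 and 22.9 RPKM with DHC and between 16.1 and 20.3 RPKM in control libraries, Mcpt1 between 7.93 and 10.1 and between 7.57 and 9.52 RPKM, and Tpsb2 and Cma1 below 1 RPKM in all 6. Of 12 listed mast cell markers 11 had a row. They summed to between 1010 and 1025 RPKM with DHC and between 1249 and 1304 RPKM in control libraries. Of the 9 tested, 1 was higher and 3 were lower with DHC, where 18.4% of all genes tested were higher and 16.1% lower. The higher gene was Ms4a2 (369 ± 10.0 RPKM with DHC, 321 ± 15.9 RPKM in control, log2 fold change 0.20). The lower genes were the transcription factor gene Gata2 (−2.28), Kit (64.4 ± 4.02 and 114.7 ± 7.36 RPKM, −0.82) and Hdc (−0.31). Without Gata2 the other 10 markers summed to between 939.6 and 954.7 RPKM with DHC and between 901.3 and 971.2 RPKM in control libraries, with overlap. Skeletal muscle markers, listed because the family is known from muscle, summed to between 3.60 and 4.25 RPKM with DHC and between 2.25 and 3.05 RPKM in control libraries over 7 of 11 genes. Most of this was the myosin light chain gene Mylpf, and Acta1 and Ckm stayed at or below 0.287 RPKM. The 4 fibroblast genes of 7 listed summed to between 20.6 and 23.5 RPKM with DHC and between 22.6 and 24.5 RPKM in control, nearly all of it from Col3a1, with Col1a1, Pdgfra and Pdgfrb at or below 0.104 RPKM, the 5 macrophage genes of 6 to between 1.56 and 2.40 and between 1.21 and 1.77 RPKM, and the 3 epithelial genes of 5 to between 2.05 and 2.50 and between 1.68 and 2.35 RPKM. T and B cell markers, 7 of 9, summed to between 41.1 and 44.0 RPKM with DHC and between 32.0 and 37.8 RPKM in control, of which Cd3e made up nearly all. The share of reads from the mitochondrial chromosome was between 3.91% and 4.14% with DHC and between 3.34% and 3.53% in control libraries. The part of these differences in the results was not tested. In bulk RNA, fewer cells of a type and less RNA per cell cannot be told apart.

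Mtmr14 was the most abundant member in every library and stood far higher with DHC. It encodes a phosphatase also called Jumpy, set apart in sequence from the other active members and known as a brake on autophagy and for its role in muscle. Mtmr14 had 155, 158 and 155 RPKM in the DHC libraries, against 63.6, 67.4 and 67.4 RPKM in the control libraries. All 3 DHC values lay far above all 3 control values, and the spread within each group was small (SD 1.60 and 2.20 RPKM, n = 3 each). The log2 fold change on the log2(RPKM + 1) scale was 1.23 ± 0.04 (SE), the 47th highest of 10667 genes tested. Behind these levels stood between 12049 and 13150 reads with DHC and between 5158 and 6114 reads in control libraries. By mean level over all libraries Mtmr14 ranked 867th of the 18286 genes. On Rnor_6.0, the build of the deposited table, the gene spans chromosome 4, 145195070 to 145238097, on the plus strand, with 2656 bases of summed exons over which reads were counted.

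Because Mtmr14 was so abundant, it shaped the make-up of the family's RNA. Mtmr14 held 56.5%, 57.3% and 58.0% of the summed level of the 10 members in DHC libraries, against 35.6%, 36.6% and 37.2% in control libraries. Such a share does not depend on how libraries are scaled. The sum over the 10 members was 273 ± 4.33 RPKM with DHC and 181 ± 2.58 RPKM in control (SD, n = 3 each). Without Mtmr14 the sum was between 112.6 and 119.6 RPKM with DHC and between 113.8 and 116.5 RPKM in control libraries, so the 9 other members together overlapped between the groups. The 6 catalytic members other than Mtmr14 summed to 90.9 ± 0.678 RPKM with DHC and 91.1 ± 1.68 RPKM in control. The 3 members without a catalytic site summed to 25.7 ± 3.40 RPKM with DHC and 24.0 ± 0.357 RPKM in control, which is 9.41% ± 1.11 and 13.3% ± 0.352 of the family total.

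**Figure D1:**
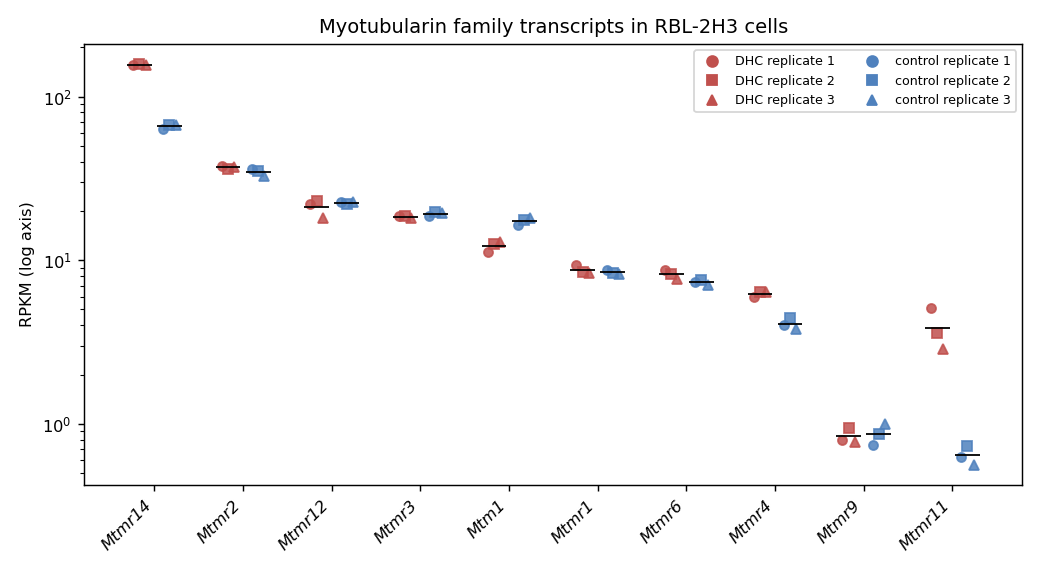
Level of each member in each library, in RPKM on a log axis, with genes ordered by their mean in control cells, DHC libraries in red left of control libraries in blue, symbols for the replicate and black lines for the group mean. Mtmr14 lies above all other members in both groups, and Mtmr11 and Mtmr9 lie lowest in control cells.

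**Figure D2:**
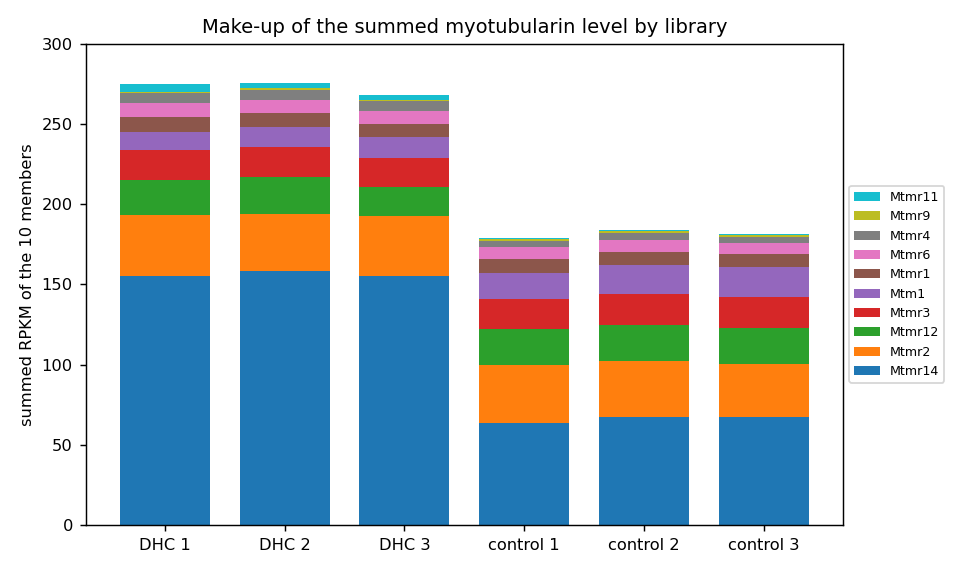
Summed RPKM of the 10 members in each of the 6 libraries, DHC libraries left of control libraries, with each colour 1 member. The lowest segment, Mtmr14, accounts for nearly all of the difference in height, and the part above it sums to between 112.6 and 119.6 RPKM with DHC and between 113.8 and 116.5 RPKM in control libraries.

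Mtm1, the founding member, whose loss in humans causes X-linked myotubular myopathy, stood lower with DHC. It had 11.3, 12.6 and 13.0 RPKM in the DHC libraries, against 16.4, 17.7 and 18.2 RPKM in the control libraries. All 3 DHC values lay below all 3 control values, by 29.5% on average, with a log2 fold change of −0.47 ± 0.07 (SE). Its closest relatives, Mtmr1 and Mtmr2, overlapped between the groups. Mtmr1 had 9.32, 8.52 and 8.35 RPKM with DHC, against 8.68, 8.35 and 8.28 RPKM in control. Its log2 fold change was 0.04 with a 95% interval of −0.12 to 0.20, and turned slightly negative under the other scalings of the libraries. Mtmr2, which in humans is mutated in a form of Charcot-Marie-Tooth neuropathy, had 37.8, 36.0 and 37.1 RPKM with DHC, against 36.0, 35.0 and 32.9 RPKM in control. The overlap was narrow, and the interval of the log2 fold change was −0.03 to 0.21. The ratio of Mtm1 to Mtmr1, a comparison within each library that needs no scaling, was 1.41 ± 0.179 with DHC and 2.07 ± 0.162 in control (SD, n = 3 each), and the groups did not overlap. In humans MTM1 and MTMR1 are neighbours on the X chromosome, but the table places the rat genes on different autosomes. Mtm1 spans chromosome 6, 18821815 to 18839409, Mtmr1 chromosome 18, 291780 to 325377, and Mtmr2 chromosome 8, 12284528 to 12333316.

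Mtmr3 and Mtmr4 form the branch with a FYVE domain, a zinc finger of the kind that binds PI3P, and their balance was different with DHC. Mtmr4, a phosphatase of endosomes, had 5.97, 6.35 and 6.43 RPKM in DHC libraries, against 4.02, 4.45 and 3.79 RPKM in control libraries. All 3 DHC values were above all 3 control values, 53.0% higher on average (log2 fold change 0.51 ± 0.08, SE). Mtmr3, which acts on PI3P at forming autophagosomes, had 18.5, 18.6 and 18.2 RPKM with DHC, against 18.6, 19.8 and 19.3 RPKM in control. The highest DHC value lay just below the lowest control value, and the difference of 4.11% had an interval of −0.18 to 0.06 on the log2 scale. The ratio of Mtmr3 to Mtmr4 was 2.95 ± 0.140 with DHC and 4.72 ± 0.339 in control, without overlap. Mtmr4 spans chromosome 10, 74886985 to 74909533, and Mtmr3 chromosome 14, 84701559 to 84820415.

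Mtmr6 and Mtmr9 encode an active enzyme and its catalytically inactive partner, which binds Mtmr6 and raises its activity. Mtmr6, known in human T cells as an inhibitor of the calcium-activated potassium channel KCa3.1, had 8.71, 8.29 and 7.73 RPKM with DHC, against 7.35, 7.60 and 7.01 RPKM in control. The groups did not overlap, by a narrow margin, and the log2 fold change of 0.15 had an interval of −0.02 to 0.32. Mtmr9 had 0.796, 0.945 and 0.770 RPKM with DHC, against 0.746, 0.864 and 1.001 RPKM in control. These rest on 143, 179 and 136 reads with DHC and 138, 152 and 207 reads in control, overlap between the groups, and fall under the minimum mean of 1 RPKM set for testing, so Mtmr9 was not tested. Mtmr6 was 9.91 ± 1.09 times as abundant as its partner per length with DHC and 8.55 ± 1.44 times in control, with overlap. Mtmr6 spans chromosome 15, 40558932 to 40597309, and Mtmr9 lies on the same chromosome, 46693383 to 46719252.

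Mtmr11 and Mtmr12 belong to the branch of inactive relatives and differed widely in level. Mtmr11, about whose function little is known, had 5.11, 3.59 and 2.88 RPKM in DHC libraries, against 0.627, 0.735 and 0.561 RPKM in control libraries. All 3 DHC values lay above all 3 control values, but relative to the mean the DHC libraries differed among themselves more than for any other member (SD 29.5% of the mean, or 1.14 RPKM). The reads numbered 411, 305 and 228 with DHC and 52, 58 and 52 in control. Its log2 fold change of 1.54 ± 0.17 (SE) was the 23rd highest of the 10667 genes tested, on a scale that understates changes of low genes, and was 2.39 with a pseudocount of 0.1 in place of 1. The mean over all libraries, 2.25 RPKM, passed the minimum only because of the DHC group. Mtmr12, the partner that binds Mtm1, had 22.1, 22.9 and 18.2 RPKM with DHC, against 22.7, 22.0 and 22.8 RPKM in control. The groups overlapped, DHC replicate 3 was the lowest of the 6, and the log2 fold change was −0.10 with an interval of −0.30 to 0.10. The ratio of Mtm1 to this partner was 0.592 ± 0.108 with DHC and 0.774 ± 0.0463 in control, and the highest DHC ratio of 0.714 lay just under the lowest control ratio of 0.721. Mtmr11 spans chromosome 2, 198303168 to 198311785, and Mtmr12 the same chromosome, 62236577 to 62303919.

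Of the 9 members tested, 3 were higher (Mtmr14, Mtmr11 and Mtmr4) and 1 lower (Mtm1) with DHC at a Benjamini-Hochberg adjusted p below 0.05 in the limma fit over all genes, where 18.4% of all genes tested were higher and 16.1% lower, 34.5% in all. The groups did not overlap in 6 of the 9, against 49.7% of all genes tested, with 4 members higher (28.1% of all genes) and 2 lower (21.6%) with DHC. Scaling by trimmed means turned the split over all genes from 1968 higher and 1717 lower calls into 1284 and 2115, and median-of-ratios factors gave 1364 and 2049. Since the members were chosen on this contrast, and Mtmr11 was tested only because of its DHC values, nothing is read from these counts. The median log2 fold change of the 9 was 0.09, beside 0.05 over all genes tested.

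**Figure D3:**
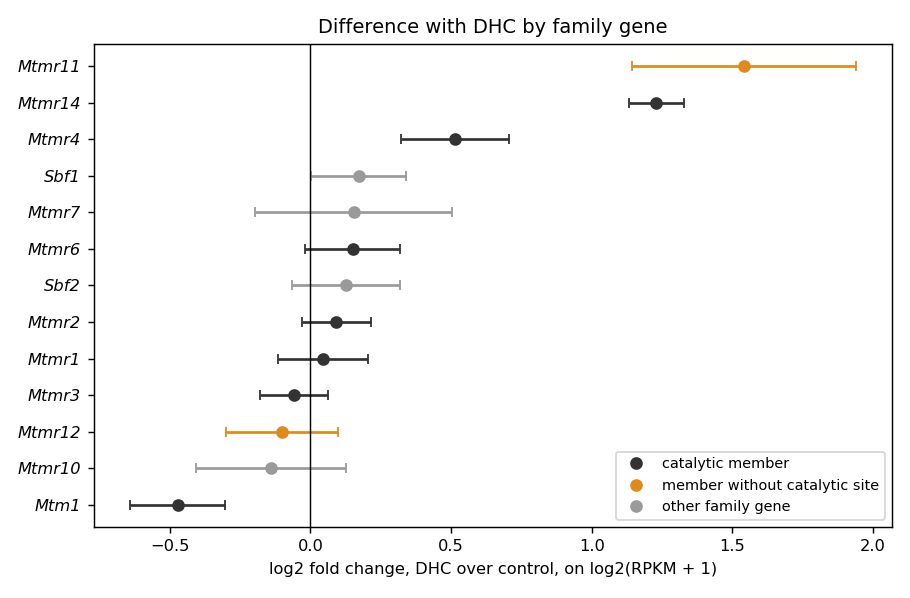
Log2 fold change of DHC over control on the log2(RPKM + 1) scale for the 9 tested members and 4 other family genes, with bars for the 95% interval of the limma fit and colours for members with and without a catalytic site. Mtmr11, Mtmr14 and Mtmr4 lie to the right of 0 and Mtm1 to the left, each with its whole interval. The interval of the other family gene Sbf1, 0.0029 to 0.341, also lies right of 0 (limma adjusted p = 0.105).

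The order of the members by level was the same in both groups from first to eighth place, Mtmr14, Mtmr2, Mtmr12, Mtmr3, Mtm1, Mtmr1, Mtmr6 and Mtmr4. At the end of the order Mtmr11 was ninth with DHC, above Mtmr9, and was last in control cells, below Mtmr9. In control libraries no neighbours in this order overlapped. In DHC libraries the values of Mtmr12 and Mtmr3 overlapped, as did those of Mtmr1 and Mtmr6. Spread within a group was smallest for Mtmr14 with DHC, at 1.02% of the mean.

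Outside the 10 genes, 4 further family genes had rows, and Mtmr8 had none under that symbol. Sbf1 and Sbf2 encode large inactive partners of Mtmr2. Sbf1 averaged 10.3 ± 0.423 RPKM with DHC and 8.995 ± 0.638 RPKM in control (SD, n = 3 each), a log2 fold change of 0.17 whose limma adjusted p was 0.105, and 0.0396 by limma-voom on recovered reads. Sbf2 had a log2 fold change of 0.13 (adjusted p = 0.269). Mtmr7, an active relative of Mtmr6, stood at 2.71 ± 0.693 RPKM with DHC and 2.29 ± 0.117 RPKM in control (0.457), and Mtmr10, an inactive relative of Mtmr12, at 1.30 ± 0.0817 and 1.53 ± 0.197 RPKM (0.375). None of the 4 passed with limma, where 18.4% of all genes tested were higher and 16.1% lower. Among them 1 had an unadjusted p below 0.05 and 1 passed by limma-voom, Sbf1 in both cases. The ratio of Mtmr2 to Sbf1 was 3.61 ± 0.237 with DHC and 3.86 ± 0.302 in control, and that of Mtmr2 to Sbf2 was 4.47 ± 0.250 and 4.62 ± 0.221, both with overlapping groups.

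No other gene of the table overlapped the span of any member, and genes outside the table were not checked. Several members had close neighbours. Beside Mtmr4, on its strand, lie the gene listed as 4-Sep (2788 bases away) and Hsf5 (1179 bases away). The first had 78, 102 and 61 reads with DHC, against 45, 40 and 52 reads in control, without overlap, and Hsf5 had at most 2 reads in any library. Cep57, 2115 bases from Mtmr2 on the other strand, averaged 23.5 RPKM with DHC and 18.7 RPKM in control, and the groups did not overlap. These 3 neighbours are named after their values were seen. Next to Mtmr14, Cpne9, a gene of the copine family of calcium-dependent membrane-binding proteins, begins 849 bases past the end on the same strand, and is likewise named after its values were seen. It had 129, 95 and 69 reads (2.22, 1.55 and 1.21 RPKM) in the DHC libraries, against 2, 3 and 13 reads (0.0334, 0.0526 and 0.194 RPKM) in the control libraries. All DHC values lay above all control values, and the mean over all libraries of 0.875 RPKM was under the minimum for testing. The next tested gene beyond it, Brpf1, which encodes a chromatin reader, had 20.2, 18.4 and 18.8 RPKM with DHC, against 17.5, 20.2 and 18.1 RPKM in control (log2 fold change 0.04, limma adjusted p = 0.685, with the sign turned under both other scalings). On the other side, Setd5, a gene of the SET domain family, lies 99824 bases away and fell to 52.8 ± 3.45 RPKM with DHC, against 67.1 ± 1.14 RPKM in control (−0.34, 0.00307). Mtmr11 lies between genes that went the other way. Otud7b, a deubiquitinase gene that ends 2966 bases before Mtmr11 begins, fell to 115.3 ± 7.402 RPKM with DHC, against 163.7 ± 10.8 RPKM in control (−0.50 ± 0.07, 0.00110). Sf3b4, a splicing factor gene that begins 642 bases past the end of Mtmr11, had a log2 fold change of −0.17 (0.0388), a call that ended on leaving out any 1 of the 6 libraries (adjusted p between 0.0512 and 0.118) by limma-voom (0.0523) and without both libraries numbered 1 (0.0669).

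**Figure D4:**
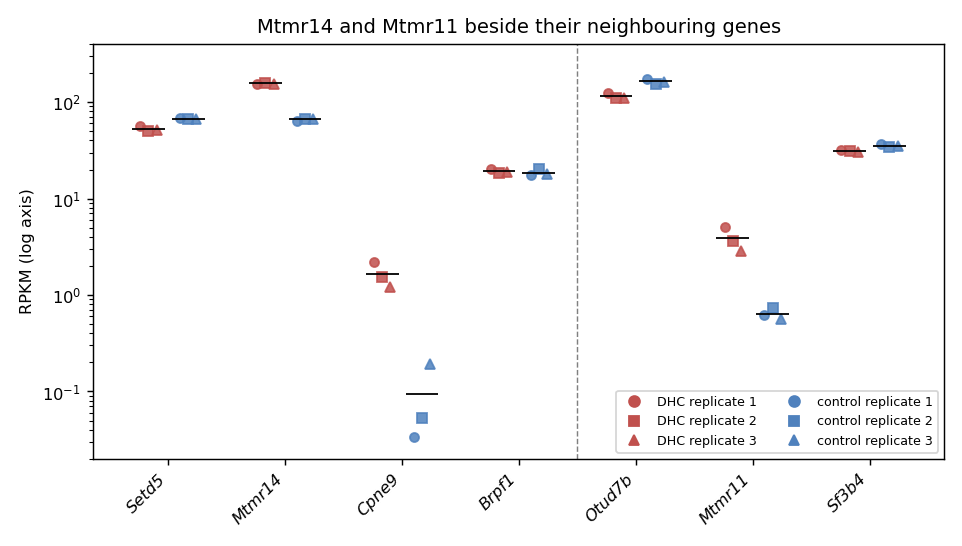
RPKM on a log axis of Mtmr14 with its neighbours (left of the dashed line) and Mtmr11 with its neighbours (right), in the order of their positions, DHC libraries in red left of control libraries in blue, with black lines for group means. Cpne9 is higher with DHC beside Mtmr14, while Setd5, Otud7b and Sf3b4 are lower.

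By Pearson correlation of log2(RPKM + 1) over the 6 libraries, the named genes most like Mtmr14 were Ac1576, Brd2, a bromodomain gene, and Prdx1, a peroxiredoxin gene, each at 0.999. Brd2 averaged 94.7 ± 0.879 RPKM with DHC and 52.7 ± 0.608 RPKM in control, and Prdx1 287 ± 2.31 and 231 ± 0.624 RPKM. Those most like Mtmr11 were Bmt2 (0.998), Dbr1, the lariat debranching enzyme gene (0.996), and Cmc2 (0.995). The 6 points fall into the 2 treatment groups, and 98 tested genes correlated above 0.99 with Mtmr14 and 16 with Mtmr11. For Mtmr14 these values mostly describe genes that stood higher with DHC with little spread. The 3 genes most like Mtmr11 stood higher with DHC and, like Mtmr11 itself, had a wider spread with DHC than in control. Bmt2 averaged 74.6 ± 3.26 and 58.9 ± 0.204 RPKM, Dbr1 27.1 ± 1.94 and 18.9 ± 0.461 RPKM, and Cmc2 136 ± 8.59 and 109 ± 2.31 RPKM.

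Genes of the complexes that make the substrates of the myotubularins gave calls in 1 direction. Of 11 listed genes of the PI3P and PI(3,5)P2 kinase complexes 9 were tested, 4 rose and none fell, where 18.4% of all genes tested were higher and 16.1% lower (limma, and limma-voom gave 5 and 0, as did an unadjusted p below 0.05). The median log2 fold change of the 9 was 0.23, beside 0.05 over all genes tested. Pikfyve, the kinase that makes PI(3,5)P2 from PI3P, had 5.61, 5.54 and 5.50 RPKM with DHC, against 4.24, 3.76 and 3.82 RPKM in control (0.41 ± 0.08, SE, limma adjusted p = 0.00626). Pik3c3, the main kinase that makes PI3P, rose to 6.60 ± 0.485 RPKM with DHC, against 5.19 ± 0.294 RPKM in control (0.29, 0.0281). Its partners Becn1 (0.15, 0.0372) and Atg14 (0.43, 0.0443) rose as well. For each of these 4 genes, which had passed the threshold, all 3 DHC values exceeded all 3 control values. Of the 9 tested, 7 were higher with DHC without overlap of the groups and 0 lower. Over all genes tested these shares were 28.1% and 21.6%. Pik3r4, the regulatory subunit of Pik3c3, had a log2 fold change of 0.17 (0.297). For Vac14 and the phosphatase gene Fig4, whose products belong to the Pikfyve complex, it was 0.17 (0.355) and 0.23 (0.169). With libraries scaled by trimmed means or by median-of-ratios factors 1 of the 4 calls was left, Pikfyve, and Pik3c3, Becn1 and Atg14 had adjusted p-values of 0.0554, 0.211 and 0.0642 with trimmed means. With no filter on low values Pik3c3 (0.0586) and Atg14 (0.105) did not pass. Leaving out single libraries ended the call of Pik3c3 in 4 of 6 cases (0.0713 to 0.0869), of Becn1 in 4 (0.0847 to 0.123) and of Atg14 in 5 (0.0547 to 0.119), and without both libraries numbered 1 Pik3c3 had 0.0587 and Atg14 0.164. The number past the threshold was 2 without DHC replicate 1, 1 without DHC replicate 2, 2 without DHC replicate 3, 2 without control replicate 2 and 1 without control replicate 3.

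Of 20 other phosphoinositide phosphatases listed 14 were tested, 6 fell and 2 rose, where 16.1% of all genes tested were lower and 18.4% higher, with a median log2 fold change of −0.19. Many of the listed genes act at the 5-position or carry a Sac domain, among them genes that fell and Sacm1l, which rose. Synj2, a synaptojanin, fell to 4.09 ± 0.300 RPKM with DHC, against 9.73 ± 1.03 RPKM in control (−1.07 ± 0.09, limma adjusted p = 0.000173). Inpp5b fell to 32.4 ± 3.38 RPKM, against 62.3 ± 3.24 RPKM in control (−0.92, 0.000154), and Inpp5f, which encodes the Sac-domain phosphatase Sac2, to 6.62 ± 0.563, against 13.1 ± 1.11 RPKM (−0.88, 0.000303). Inpp5d, the blood cell phosphatase SHIP1 that restrains signalling of the IgE receptor, had a log2 fold change of −0.64 (0.000409) and Synj1 of −0.37 (0.00127). Sacm1l, a Sac-domain phosphatase gene of the endoplasmic reticulum named after its values were seen, rose to 17.3 ± 0.835 RPKM with DHC, against 13.8 ± 0.522 RPKM in control (0.31, 0.00768). The number of listed genes that rose was 1 under either other scaling, with no filter on low values, and without DHC replicate 1, DHC replicate 2, control replicate 2 or control replicate 3.

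Genes listed as effectors of PI3P were mixed. The list was written from general knowledge. Whether each product binds the lipid, such as those of Stam, Snx5 or Phf1, was not checked. Of 31 listed 30 were tested, 4 rose and 6 fell, with a median log2 fold change of −0.04, and over all genes tested 18.4% were higher and 16.1% lower. With trimmed mean scaling 2 rose and 10 fell, and with median-of-ratios scaling 2 rose and 9 fell. Plekhf2, a FYVE protein of endosomes, fell to 15.9 ± 1.87 RPKM with DHC, against 24.2 ± 0.659 RPKM in control (−0.59, limma adjusted p = 0.00160), Stam, an endosomal sorting adaptor, by 0.47 on the log2 scale (0.00316) and Plekhf1 by 0.43 (0.0175). Snx5, a sorting nexin, rose by 0.25 (0.0118) and Ankfy1, a Rab5 effector with a FYVE domain, by 0.37 (0.0169). For Plekhf1 the adjusted p was 0.0628 without DHC replicate 2, 0.0543 without DHC replicate 3, 0.0528 without control replicate 1 and 0.0531 without control replicate 3, and for Ankfy1 0.0573 without DHC replicate 3, 0.0541 without control replicate 3 and 0.07995 without both libraries numbered 1. The number that rose was 2 without DHC replicate 2 or control replicate 2 and 1 without DHC replicate 3 or control replicate 3, and the number that fell 3 without DHC replicate 2, DHC replicate 3 or control replicate 1.

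Autophagy genes, listed because Mtmr14 and Mtmr3 act on that pathway, moved both ways. Of 26 listed 24 were tested, 7 rose and 5 fell, beside 18.4% higher and 16.1% lower over all genes tested, with a median log2 fold change of 0.09. Atg5, part of the conjugation machinery, rose to 43.3 ± 1.29 RPKM with DHC, against 32.9 ± 0.588 RPKM in control (0.39 ± 0.05, limma adjusted p = 0.000828), Ulk1, the initiating kinase, by 0.45 (0.00458) and Map1lc3b, which encodes the autophagosome protein LC3B, by 0.29 (0.00494). Gabarapl1, a relative of LC3B, fell to 56.5 ± 2.72 RPKM, against 80.7 ± 3.13 RPKM in control (−0.51, 0.000390), and the protease gene Atg4d, which trims such proteins, to 3.07 ± 0.288, against 5.97 ± 0.160 RPKM (−0.78, 0.000496). Without DHC replicate 3 the number that rose was 4.

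Of 20 listed genes of the Rab5 machinery of early endosomes 17 were tested, 1 rose and 4 fell, beside 18.4% higher and 16.1% lower over all genes tested, with a median log2 fold change of 0.05. By limma-voom 2 rose and 4 fell. Rin3, which activates Rab5, had 3.43, 3.04 and 3.27 RPKM with DHC, against 8.75, 9.05 and 8.81 RPKM in control (−1.22 ± 0.07, limma adjusted p = 3.5e-05). Vps18, a subunit of tethering complexes, fell by 0.78 (0.00186) and the Rab5 effector gene Rabep2 by 0.26 (0.0169), while Rab5b rose by 0.39 (0.00404). Rabep1 (−0.15) lay at the threshold itself, with an adjusted p of 0.04997, which leaving out any 1 library moved above it (0.0863 to 0.140), as did either smaller pseudocount. Rabep2 did not pass without DHC replicate 2 (0.0587) or control replicate 2 (0.0606), where 2 genes of the list fell. Without control replicate 1, 2 rose.

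Of 12 listed channel and membrane genes linked to myotubularins 7 were tested, with a median log2 fold change of 0.03. None rose or fell with limma, where 18.4% of all genes tested were higher and 16.1% lower. By limma-voom, and at an unadjusted p below 0.05, 1 was higher and none lower. Bin1, the membrane-bending protein gene mutated in a human centronuclear myopathy, had 23.2, 23.5 and 24.8 RPKM with DHC, against 24.9, 26.2 and 25.8 RPKM in control (−0.10 ± 0.05, SE, adjusted p = 0.168). Dnm2, the dynamin gene whose product works beside MTM1 in muscle, stood at 98.0 ± 6.15 RPKM with DHC and 100.3 ± 4.598 RPKM in control (0.693), with a log2 fold change of −0.03 that turned slightly positive without DHC replicate 1 or control replicate 3. Kcnn4, which encodes the channel KCa3.1, had no row under that symbol and was not analysed here.

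**Figure D5:**
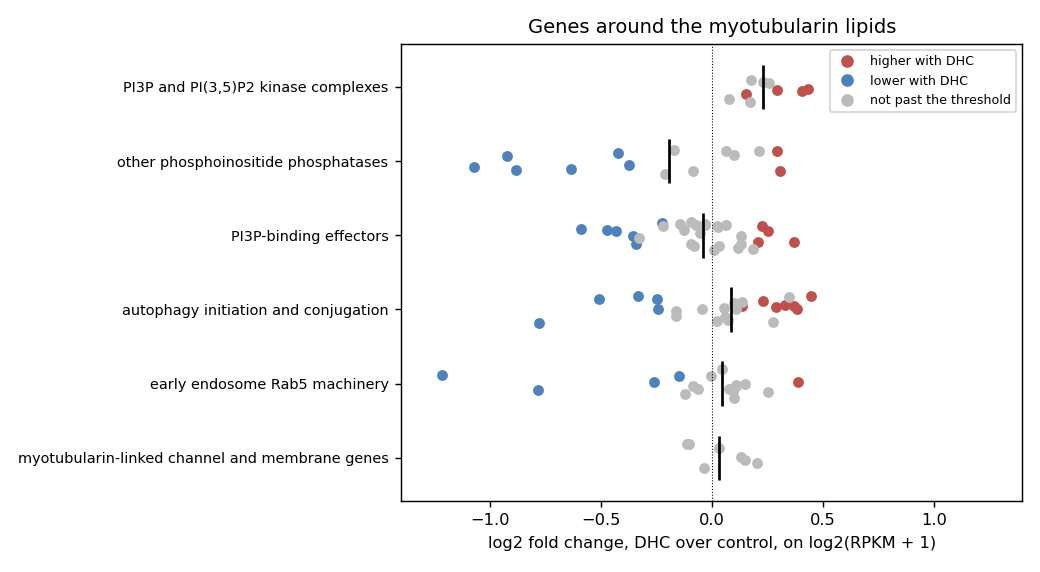
Log2 fold change of DHC over control on the log2(RPKM + 1) scale for every tested gene of 6 lists around the myotubularin lipids, coloured by whether it was higher, lower or not past the threshold, with a black line at each list's median. All 9 kinase complex genes lie to the right of 0, as does the median over all genes tested (0.05 as deposited). With trimmed mean scaling that median was −0.0046, and 1 of the 4 kinase complex calls was left. Rin3 of the Rab5 list and Synj2 of the phosphatases lie furthest to the left.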

How the data were processed

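RNA of 6 RBL-2H3 samples was taken with Trizol and made into Illumina libraries, per the labels' protocols. The tools named are edgeR 3.12.1, Subread 1.5.1 with featureCounts, and Trimmomatic 0.36, with Rnor_6.0 as the genome build, per the submitters' processing notes. Aligner, annotation release and strand setting: not given in the sources used here. The deposited table gives RPKM for 18286 genes with exon coordinates and lengths. Value times length was a whole number of reads for 100% of values within 0.01 read, which gave reads per gene and library totals. A floor of 3 reads equals 0.0878 to 0.103 RPM, for counting error only.

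Genes averaging 1 RPKM or more over the 6 libraries, 10667 in number, were tested with limma 3.58.1 (R 4.3.3, trended variance) on log2(RPKM + 1), group as the only term, two-sided, Benjamini-Hochberg adjustment over all of them, threshold 0.05. All log2 fold changes are on that scale and values written as percent or ratios are of RPKM. Simulated data served to check the procedure. The members, the 6 pathway lists, the marker lists and the rule for named genes (all members and family genes, up to 5 called genes with the lowest p of each list, 10 fixed pathway genes, neighbours, and the 3 genes most correlated with Mtmr14 and Mtmr11) were chosen with earlier results of these data known. Lists are described by counts and medians only. The values of 1 gene that the rule names are not reported here. The planned comparison of protein windows was not made. Replicates differed by more than sampling noise (chi-square over its degrees of freedom 4.52 to 15.9), so each library counted once. Alternatives were other pseudocounts, filters and scalings, limma-voom on recovered reads, a replicate block and leaving out each library. Leaving out both libraries numbered 1 was chosen after seeing the data.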

Additional observations from a re-analysis of the deposited data

How the results depend on the processing

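The numbers of members past the threshold, 3 higher and 1 lower, came out the same under all alternatives, except that 2 were higher with the 5 RPKM filter, where Mtmr11 was not tested, and were 3 and 1 when any single library was left out, which is a description, since the members were chosen on this contrast. Pathway counts depended more on the processing. With trimmed mean scaling, kinase complex genes past the threshold as higher were 1 instead of 4, and other phosphatases higher 1 instead of 2. Of the PI3P effector list 2 genes were higher instead of 4, and 10 lower instead of 6. Median-of-ratios scaling gave 1, 1 and 2 for the same higher counts. With no filter on low values the kinase and phosphatase counts of higher genes were 2 and 1, and with the 5 RPKM filter or without both libraries numbered 1 the kinase count was 2. Limma-voom, the replicate block and leaving out both libraries numbered 1 each gave 2 higher Rab5 genes instead of 1 and 1 higher channel or membrane gene instead of 0. Leaving out single libraries gave between 1 and 3 higher kinase genes, and 1 and 2 higher and 5 and 6 lower phosphatases. For the PI3P effector list it gave between 1 and 4 higher and 3 and 8 lower genes. It gave between 4 and 7 higher and 4 and 5 lower autophagy genes, and 1 and 2 higher and 2 and 3 lower Rab5 genes. The cause of these shifts was not tested.

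Signs turned for values near 0. The log2 fold change of Mtmr1 was −0.016 with trimmed mean and −0.0073 with median-of-ratios scaling, and that of Brpf1 −0.023 and −0.013, and −0.035 without both libraries numbered 1. Dnm2 gave 0.0088 without DHC replicate 1 and 0.0034 without control replicate 3, in a range from −0.080 to 0.0088. The ratio of mean RPKM of Mtmr9, DHC over control, was 0.962 with all libraries, 1 without DHC replicate 3 and 1.04 without control replicate 3, and ranged from 0.898 to 1.04 over single libraries left out. For the summed level of the 9 members without Mtmr14 the ratio was 1.01, and 0.967 with trimmed mean scaling, 0.974 with median-of-ratios scaling, and 0.9998 without DHC replicate 1 or both libraries numbered 1, with up to 1.03 without DHC replicate 3. The 7 catalytic members summed 1.57 times higher with DHC, and 1.501 and 1.512 times under those scalings. Across alternatives the log2 fold change lay between 1.16 and 1.24 for Mtmr14, 1.36 and 2.56 for Mtmr11, 0.46 and 0.62 for Mtmr4, and −0.54 and −0.42 for Mtm1. The median over all genes was 0.05 as deposited, −0.0046 with trimmed means and 0.0040 with median-of-ratios factors. For libraries with the same replicate number the correlation of deviations was 0.228, −0.0495 and 0.0828. For different numbers it lay between −0.183 and 0.106. Whether the numbers pair the libraries is not settled by these values. Over all genes the replicate block gave 2426 higher and 1907 lower calls, beside 1968 and 1717 without it. The block ended no call of a member, and Vac14 passed with it (limma adjusted p = 0.0382). Low read numbers limit Mtmr9, Mtmr11 and Cpne9, and arms of 3 libraries limit all tests.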
